A study of Mus musculus with 15 samples.

Results

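Proliferation genes were read in mouse bone-marrow-derived eosinophils (bmEos) as the transcripts of 40 genes that act in DNA replication or in mitosis. The genes were taken from a list by symbol, and all 40 were found among the 25101 genes of the deposited count tables. For description they were divided by textbook role into 14 S phase genes (licensing and helicase, fork and nucleotide supply, E2f1) and 26 mitosis genes. The bmEos were grown from unselected marrow progenitors of BALB/c mice, an inbred strain, with no age, allele or other agent named in the labels. The culture received SCF and FLT3L at 100 ng/mL each over the opening days, then IL-5 at 10 ng/mL, and was harvested at day 14. RNA was sequenced from 2 bmEos libraries, replicates 1 and 2, among the 15 samples of the series. The labels do not say that the replicates came from separate cultures or animals. Count tables of 1 macrophage and 1 neutrophil library from outside studies were deposited beside them, and nothing used here states their strain, age or treatment.

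A dividing cell first loads the MCM helicase onto replication origins, then copies its DNA with factors such as PCNA and with nucleotides from ribonucleotide reductase and thymidylate synthase. E2F factors switch on many of these S phase genes once cyclin-dependent kinases have released them from the RB family. Mitosis genes are switched on later, largely through the MuvB complex with B-Myb and FoxM1, and encode the cyclin B kinase, spindle motors, kinetochore proteins and condensins. Eosinophil progenitors divide under SCF, FLT3L and IL-5, whereas mature eosinophils and neutrophils are known as cells that no longer divide.

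The bmEos libraries held 40306679 and 30465490 counts, the macrophage library 106940777 and the neutrophil library 6390310. Values are CPM, each gene's count over the total of its library on a common scale, so that 3 counts equal 0.0744, 0.0985, 0.0281 and 0.469 CPM in that order. All 10 eosinophil markers were at 1 CPM or more in both bmEos libraries and summed to 13350 and 13610 CPM, against 3.29 CPM in the macrophage and 348 CPM in the neutrophil library. In the library given as macrophage, the 14 macrophage markers summed to 19590 CPM. They also summed to 7087 and 8560 CPM in the bmEos, where 13 of the 14 were detected, and to 1094 CPM in the neutrophil library. In the library given as neutrophil, the 11 late neutrophil markers summed to 2635 CPM, beside 2322 and 2012 CPM in the bmEos. The progenitor markers summed to 195 CPM there, against 240 and 180 CPM. Single markers differed more than these sums. Of the 11 late neutrophil markers, 3 were at least 2-fold higher in each bmEos library and 6 at least 2-fold lower. Of 9 progenitor markers compared, 6 were higher and 3 lower, where 27.2% of all genes were higher and 23.9% lower. The marker pattern of that library was thus mixed. Of 10 housekeeping genes, 5 were at least 2-fold higher in each bmEos library than in that library and 0 lower. Their log2 ratios ran from -0.95 to 6.29 with a median of 1.79. Gapdh was far apart, at 19.2 CPM there against 1460 and 1560 CPM in the bmEos. Each ratio to the neutrophil library rests on this 1 library. With 1 outside library per cell type no test was possible, and cell type, study, strain and library preparation cannot be told apart.

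Each of the 40 genes reached 1 CPM in both bmEos libraries, where 47.5% of all genes did so. They also reached 1 CPM in both outside libraries. Summed over the 40 genes, bmEos replicate 1 held 3262 CPM and replicate 2 held 2703 CPM, against 1200 CPM in the macrophage and 1332 CPM in the neutrophil library. The genes thus took 0.326% (95% Wilson interval 0.324 to 0.328) and 0.27% (0.268 to 0.272) of the bmEos counts, beside 0.12% and 0.133% of the outside libraries. The intervals cover counting error only. In bulk RNA, few cells with much of a transcript and many cells with little cannot be told apart, so these shares give no number of dividing cells. Mki67 encodes the Ki-67 protein that coats mitotic chromosomes and is lost from resting cells. Its level was 492 CPM in replicate 1 and 420 CPM in replicate 2, against 27.3 CPM in the macrophage and 172 CPM in the neutrophil library. Mki67 stood at the percentile 98.9 of all genes in bmEos replicate 1, 75.5 in the macrophage and 92.1 in the neutrophil library. Counts are not divided by transcript length, so levels were compared between libraries and not between genes. The Mki67 percentiles also depend on transcript length and serve only to set the libraries beside each other.

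**Figure D1:**
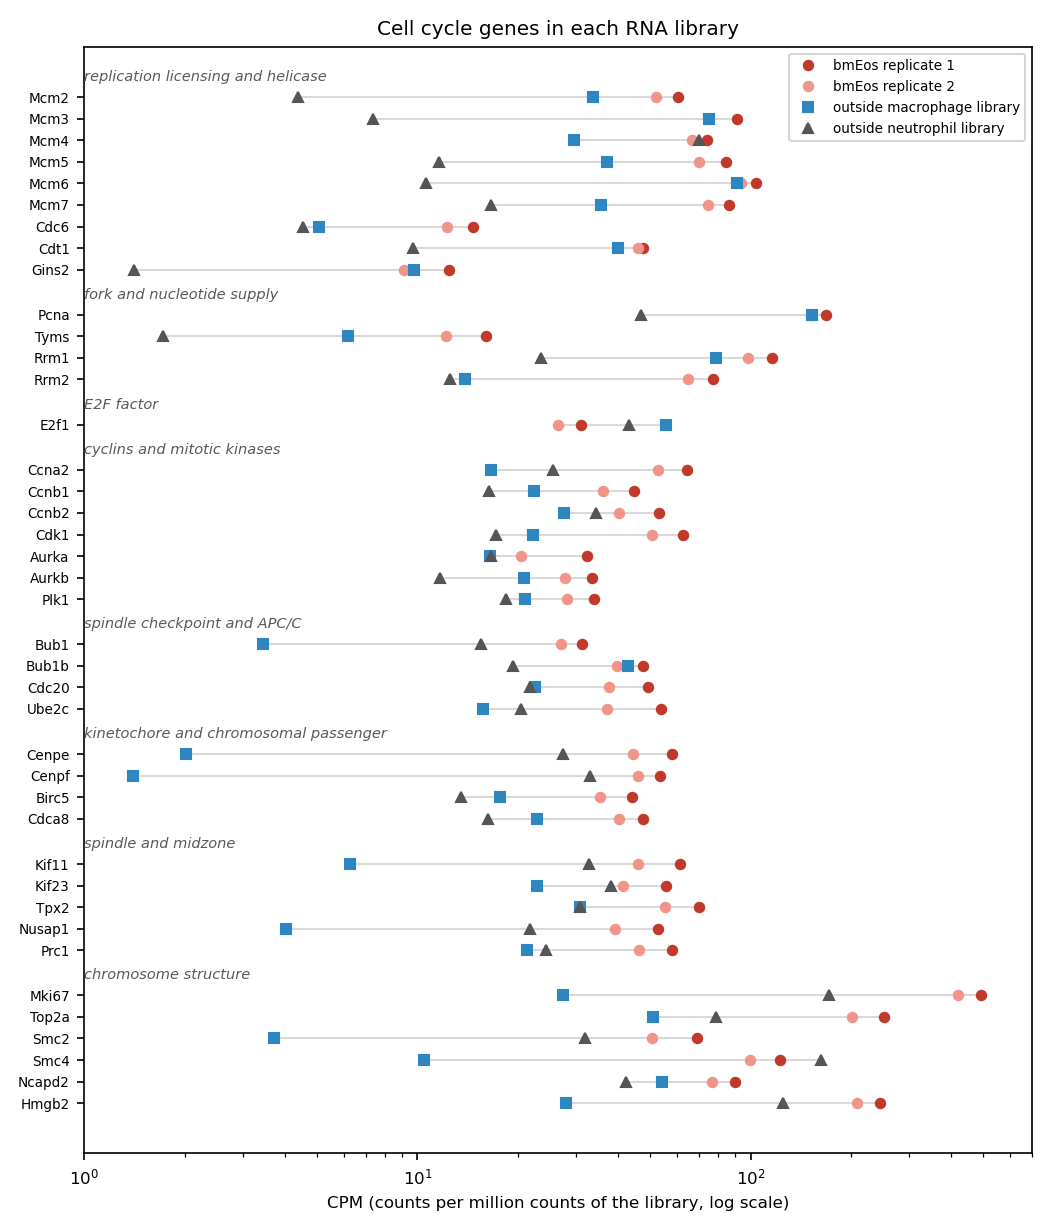
Level of each of the 40 cell cycle genes in CPM on a log axis, with 1 row per gene grouped by role; circles are the 2 bmEos libraries, squares the outside macrophage library and triangles the outside neutrophil library. The triangles of most S phase genes lie far to the left of the other symbols, while the squares of Cenpe (2.02 CPM) and Cenpf (1.4 CPM) do so among mitosis genes.

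A gene was counted as higher in the bmEos when each bmEos library was at least 2-fold above the outside library, and as lower in the mirrored case. Against the macrophage library 19 of the 40 genes were higher and 0 lower, where 26.1% of the 13159 genes compared were higher and 16.6% lower. The median log2 ratio of the 40 genes was 1.13, beside 0.09 over all genes. Against the neutrophil library 21 of the 40 were higher and 0 lower, where 27.2% of 13207 genes were higher and 23.9% lower. The median log2 ratio was 1.19, beside -0.07 over all genes. With TMM scaling the background became 22.7% higher and 21.7% lower against the macrophage library, and the median of all genes moved from 0.09 to -0.13. Of the 40 genes 15 were then higher and 1 lower, with Mcm4, Mcm7, Birc5 and Prc1 no longer called. Against the neutrophil library it became 32.5% and 17.4% with TMM, with the median of all genes at 0.25, and 30.6% and 19.8% with DESeq2 size factors, with that median at 0.13. Of the 40 genes 31 were then higher with TMM and 28 with DESeq2 size factors, in place of 21.

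Among the licensing and helicase genes, the 6 subunits of the MCM helicase, Mcm2 to Mcm7, summed to 500 and 432 CPM in the bmEos, 302 CPM in the macrophage and 121 CPM in the neutrophil library. Mcm2 was at 60.5 and 52 CPM in the bmEos, 33.7 CPM in the macrophage and 4.38 CPM in the neutrophil library. Mcm3 was at 90.9 and 75 CPM, beside 75.3 and 7.35 CPM. Both thus stood 12.8-fold and 11.3-fold above the neutrophil library, and less than 2-fold above the macrophage library. Mcm6 was at 104 and 93.8 CPM in the bmEos, 91 CPM in the macrophage and 10.6 CPM in the neutrophil library, and its bmEos mean was 1.09-fold the macrophage value. Mcm5 was at 84.3 and 70.1 CPM, beside 37 and 11.6 CPM. Mcm7 was at 86.3 and 74.4 CPM, beside 35.5 and 16.6 CPM, and was higher than each outside library, though not than the macrophage library with TMM scaling. Mcm4 was the exception among the 6 subunits: its 74.1 and 66.8 CPM in the bmEos enclosed the 70.1 CPM of the neutrophil library, while the macrophage library had 29.6 CPM, a call also lost with TMM scaling.

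Cdc6 and Cdt1 encode the loaders that place the helicase on origins, and Gins2 a subunit of the GINS complex that joins the active helicase. Cdc6 was at 14.7 and 12.3 CPM in the bmEos, 5.05 CPM in the macrophage and 4.54 CPM in the neutrophil library, higher than each. Cdt1 was at 47.4 and 46 CPM in the bmEos, the closest pair of replicate values among the 40 genes, with 40.1 CPM in the macrophage and 9.7 CPM in the neutrophil library. Gins2 was at 12.4 and 9.13 CPM in the bmEos, which enclosed the 9.75 CPM of the macrophage library, and at 1.41 CPM in the neutrophil library. This last value rests on 9 counts, so the 7.63-fold ratio is imprecise. Of the 9 licensing and helicase genes, 3 were higher than in the macrophage library and 8 than in the neutrophil library. Of all genes 26.1% and 27.2% were higher, so the count against the macrophage library is near the share of all genes.

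Pcna, the sliding clamp of DNA polymerase, was at 168 and 152 CPM in the bmEos and 153 CPM in the macrophage library, inside the bmEos range, and at 46.9 CPM in the neutrophil library. Rrm1, the large subunit of ribonucleotide reductase, was at 116 and 98 CPM, beside 78.9 and 23.5 CPM. Rrm2, the S phase subunit of the same enzyme, was at 77.1 and 65 CPM in the bmEos, against 13.9 CPM in the macrophage and 12.5 CPM in the neutrophil library. The mean of Rrm2 in the bmEos, 71 ± 8.61 CPM (SD, n = 2), was thus 5.1-fold and 5.68-fold above these libraries, while Rrm1 stood 1.36-fold above the macrophage library. Tyms, thymidylate synthase, was at 16.1 and 12.2 CPM in the bmEos, 6.2 CPM in the macrophage library and, on 11 counts, 1.72 CPM in the neutrophil library. E2f1, an activator of S phase genes, was the one S phase gene whose bmEos values lay below both outside libraries: 31 and 26.5 CPM, against 55.9 CPM in the macrophage and 43.3 CPM in the neutrophil library. E2f1 missed the 2-fold rule on replicate 1 and counted as lower than in the macrophage library with TMM scaling or without replicate 1.

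Promoters show how the 2 groups of genes differ outside these libraries. RefSeq promoters of build GRCm38.p6, from 250 bases before to 50 after a gene's start, were at hand for 34 of the 40 genes, 12 of S phase and 22 of mitosis. Aurkb, Ccna2, Gins2, Mcm4, Smc4 and Tpx2 were not among them. The letters TTCCCGC or TTGGCGC, as bound by E2F, were searched on both strands, as were TTTGAA or TTCGAA, the cell cycle homology region (CHR) read by MuvB, and CCAAT, the box bound by NF-Y. An E2F match on the other strand, GCGCCAA, can overlap a CCAAT match, as in Ccnb1. Below are the 150 bases before the start of 2 S phase and 4 mitosis genes, chosen to show each kind of match among windows that lie outside every RefSeq gene, with matches in capitals and the strand of the gene given.
Mcm6 (chr1:128359706-128359855, - strand): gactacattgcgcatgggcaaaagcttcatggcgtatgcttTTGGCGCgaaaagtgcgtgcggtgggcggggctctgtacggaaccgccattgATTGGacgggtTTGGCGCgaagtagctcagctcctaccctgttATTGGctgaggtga
Rrm1 (chr7:102441545-102441694, + strand): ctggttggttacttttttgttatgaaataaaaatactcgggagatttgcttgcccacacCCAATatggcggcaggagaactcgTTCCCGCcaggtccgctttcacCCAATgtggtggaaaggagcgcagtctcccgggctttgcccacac
Cdk1 (chr10:69352913-69353062, - strand): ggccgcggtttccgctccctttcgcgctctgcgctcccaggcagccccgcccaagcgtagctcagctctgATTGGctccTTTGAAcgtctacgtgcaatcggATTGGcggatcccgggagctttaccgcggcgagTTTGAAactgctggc
Cdc20 (chr4:118437344-118437493, - strand): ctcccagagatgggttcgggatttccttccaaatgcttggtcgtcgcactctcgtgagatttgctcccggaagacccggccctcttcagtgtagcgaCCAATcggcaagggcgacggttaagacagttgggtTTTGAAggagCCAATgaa
Ube2c (chr2:164769779-164769928, + strand): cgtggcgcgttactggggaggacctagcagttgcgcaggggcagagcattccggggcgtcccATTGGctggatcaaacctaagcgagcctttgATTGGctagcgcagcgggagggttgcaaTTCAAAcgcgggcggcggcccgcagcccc
Kif11 (chr19:37376232-37376381, + strand): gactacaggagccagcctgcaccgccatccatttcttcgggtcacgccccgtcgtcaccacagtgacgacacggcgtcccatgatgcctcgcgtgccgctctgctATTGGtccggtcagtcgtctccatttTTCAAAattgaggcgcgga

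Mcm6 carried the E2F letters TTGGCGC with a first base at positions -109 and -46 from its start, and Rrm1 the letters TTCCCGC at -67. Neither held CHR letters in the window. Cdk1 carried TTTGAA at -71 and -15, each downstream of a CCAAT match on the other strand, and it also held an E2F match at -178, outside the stretch shown. In Cdc20, Ube2c and Kif11 the CHR letters lay at -18, -29 and -19, again with a CCAAT match farther upstream, at -53, -57 and -45.

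Over all genes of the table with a promoter, 7.79% of 27025 held E2F letters, and 14.2% of those detected in the bmEos. Among S phase genes 7 of 12 (58.3%) held them, namely Mcm3, Mcm5, Mcm6, Mcm7, Cdc6, Cdt1 and Rrm1, and among mitosis genes 4 of 22 (18.2%), namely Ccnb1, Cdk1, Mki67 and Ncapd2. CHR letters were found in 18 of 22 mitosis genes (81.8%) and in 2 of 12 S phase genes (16.7%), Mcm2 and Mcm7, beside 21.7% of all genes and 16.4% of those detected. Birc5, Ccnb1, Cenpe and Nusap1 were the mitosis genes with no CHR match in this window. CCAAT was found in 20 of 22 mitosis genes (90.9%) and 8 of 12 S phase genes (66.7%), beside 41.1% of all genes and 43% of those detected. Each of the 18 mitosis genes with CHR letters also held CCAAT, a pair that 9.65% of all genes held. Without the bases after the start, 5 S phase genes kept E2F letters and 12 mitosis genes (54.5%) kept CHR letters, beside 19.6% of all genes. A match of letters is a description of the sequence, not a shown binding site.

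**Figure D2:**
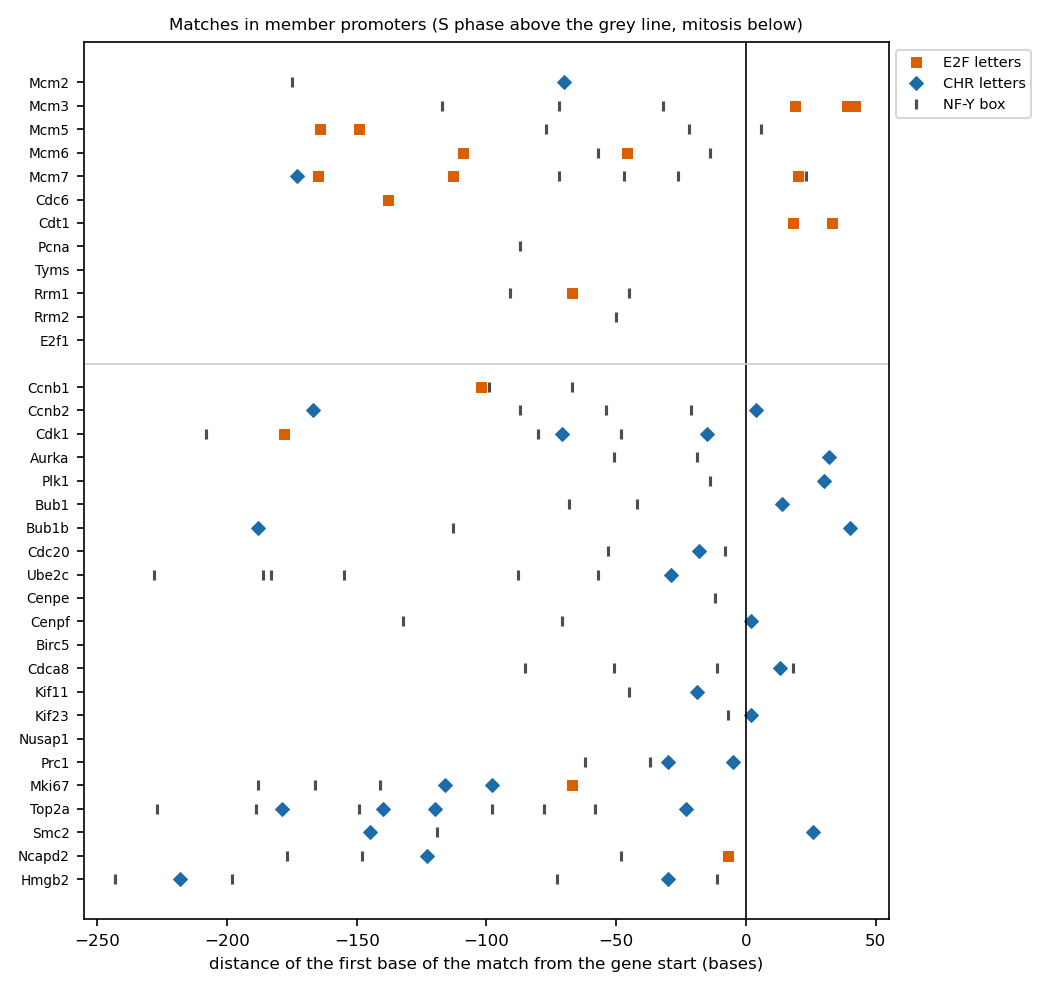
Position of E2F letters (squares), CHR letters (diamonds) and the CCAAT box bound by NF-Y (ticks) in the RefSeq promoters of 34 cell cycle genes, as the distance in bases of the match's first base from the gene start (0, black line). Squares lie mostly in the S phase rows above the grey line (7 of 12 genes) and diamonds in the mitosis rows below it (18 of 22 genes).

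Among the cyclins and mitotic kinases, Ccna2 encodes cyclin A2, which acts in S phase and into mitosis, and Cdk1 the kinase that drives entry into mitosis. Ccna2 was at 64.4 and 52.6 CPM in the bmEos, 16.6 CPM in the macrophage and 25.5 CPM in the neutrophil library. Cdk1 was at 62.9 and 50.7 CPM, against 22.2 and 17.2 CPM. Both were higher than in each outside library, and were the only 2 of the 7 genes of this group so placed against the macrophage library. That count of 2 of 7 is near the 26.1% of all genes. Ccnb1, cyclin B1, was at 44.7 and 36 CPM, against 22.4 and 16.4 CPM, and Ccnb2, cyclin B2, at 53 and 40.3 CPM, against 27.6 and 34.3 CPM. The kinases Aurka, Aurkb and Plk1, which act on the spindle poles, the centromeres and along the whole mitotic path, had bmEos means of 26.4 ± 8.32, 30.6 ± 4.06 and 31 ± 4 CPM (SD, n = 2). These means were 1.6-fold, 1.46-fold and 1.47-fold the macrophage values. Against the neutrophil library, 4 of the 7 genes were higher, where 27.2% of all genes were: Ccna2, Ccnb1, Cdk1 and Aurkb.

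Bub1 and Bub1b encode kinases of the spindle checkpoint, which holds the anaphase-promoting complex until all chromosomes are attached. Bub1 was at 31.1 and 27 CPM in the bmEos against 3.45 CPM in the macrophage library, while Bub1b was at 47.7 and 39.8 CPM against 42.9 CPM, inside the bmEos range. In the neutrophil library Bub1 had 15.5 CPM and Bub1b 19.4 CPM. These 2 related genes thus stood 8.42-fold and 1.02-fold above the macrophage library, and 1.88-fold and 2.25-fold above the neutrophil library. Cdc20, the activator of the anaphase-promoting complex, was at 49.2 and 37.7 CPM, beside 22.5 and 21.8 CPM. Ube2c, its ubiquitin-conjugating enzyme, was at 53.9 and 37 CPM, beside 15.7 and 20.5 CPM, and was higher than in the macrophage library.

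Of the 40 genes, the kinetochore genes Cenpf and Cenpe gave the widest ratios to the macrophage library. Cenpf was at 53.6 and 45.9 CPM in the bmEos and 1.4 CPM in the macrophage library (150 counts), and Cenpe, a kinetochore motor, at 58.3 and 44.3 CPM against 2.02 CPM (216 counts). The bmEos means were 35.5-fold and 25.4-fold the macrophage values, while the neutrophil library had 33 and 27.4 CPM for the same genes, less than 2-fold below the bmEos. Birc5, or survivin, and Cdca8, or borealin, are subunits of the chromosomal passenger complex. Birc5 was at 44 and 35.4 CPM, against 17.7 and 13.5 CPM, and was higher than in each outside library. Its ratio to the macrophage library in replicate 2 was 2-fold, at the threshold, and it was not called with TMM scaling, DESeq2 size factors or a pseudocount of 1 CPM. Cdca8 was at 47.4 and 40.2 CPM, against 22.9 and 16.3 CPM.

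The spindle genes encode the motors Kif11 and Kif23, the spindle assembly factor Tpx2 and the microtubule bundlers Nusap1 and Prc1. Kif11 was at 61.6 and 46.1 CPM in the bmEos, 6.29 CPM in the macrophage and 32.7 CPM in the neutrophil library. Nusap1 was at 52.9 and 39.1 CPM, beside 4.03 and 21.8 CPM. Kif11, Nusap1 and Prc1 were higher than in the macrophage library, by 8.56-fold, 11.4-fold and 2.46-fold, and Prc1 was not called with TMM scaling. Against the neutrophil library 0 of the 5 genes passed the rule, where 27.2% of all genes did. Their log2 ratios ran from 0.35 (Kif23) to 1.1 (Prc1). Tpx2, Nusap1 and Prc1 passed the rule with TMM scaling, with DESeq2 size factors or without bmEos replicate 2. Kif23 stood at 55.8 and 41.3 CPM in the bmEos, and Tpx2 at 70 and 55.4 CPM, the latter against 30.8 CPM in each outside library.

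Among the genes of chromosome structure, Top2a untangles DNA as topoisomerase II alpha, Smc2, Smc4 and Ncapd2 are condensin subunits, and Hmgb2 is a chromatin protein. Top2a was at 252 and 202 CPM in the bmEos, 50.8 CPM in the macrophage and 78.6 CPM in the neutrophil library, and was higher than in each, as was Mki67. Hmgb2 was at 245 and 209 CPM, beside 28 and 125 CPM. Smc2 was at 68.9 and 50.7 CPM in the bmEos, 3.72 CPM in the macrophage and 31.9 CPM in the neutrophil library. Smc4 was at 123 and 99.6 CPM, beside 10.5 and 163 CPM, so that its neutrophil value lay above both bmEos values by less than 2-fold. Ncapd2 was at 89.8 and 76.8 CPM, beside 54.2 and 42.3 CPM. Of the 6 genes, 5 were higher than in the macrophage library and 2 than in the neutrophil library. Of all genes 26.1% and 27.2% were higher, so the count against the neutrophil library is near the share of all genes. In the list of 10 further cohesin and condensin genes, 5 were higher in the bmEos than in the macrophage library, with log2 ratios over the list from -0.5 to 2.84.

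**Figure D3:**
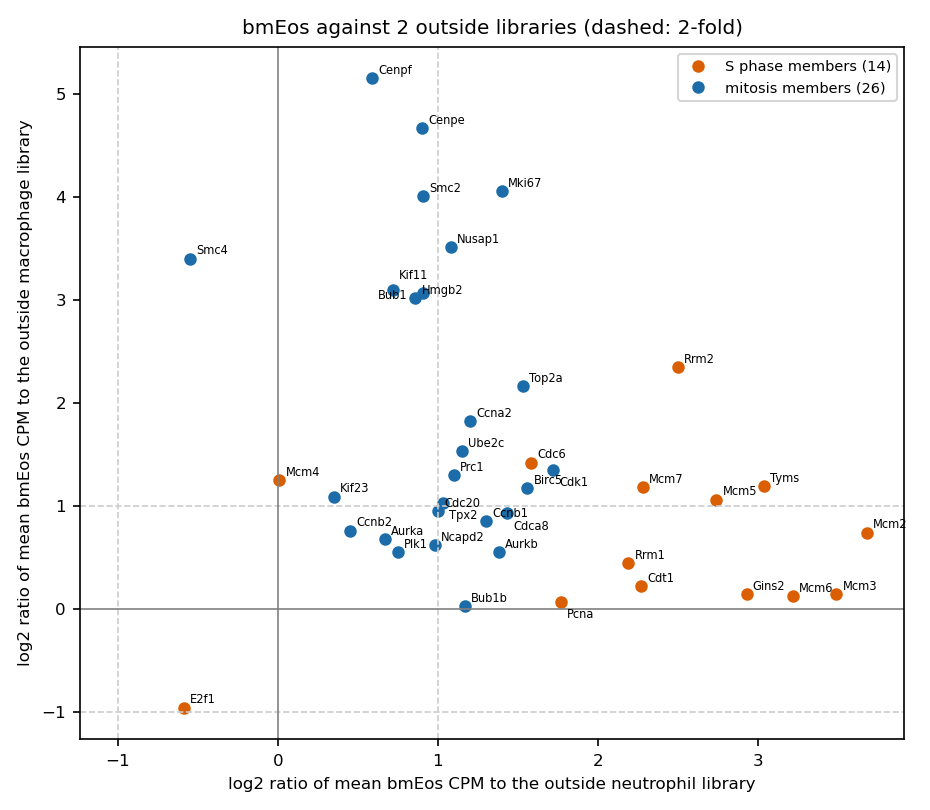
Log2 ratio of the mean bmEos CPM to the outside neutrophil library (x axis) and to the outside macrophage library (y axis) for 14 S phase genes (orange) and 26 mitosis genes (blue), with dashed lines at 2-fold; both axes share the bmEos libraries. S phase genes spread to the right (median 2.39 on the x axis and 0.59 on the y axis) and mitosis genes upward (medians 1.01 and 1.33).

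S phase and mitosis genes took a different order against each outside library. Against the macrophage library 4 of 14 S phase genes, a share near the 26.1% of all genes, and 15 of 26 mitosis genes were higher, with median log2 ratios of 0.59 and 1.33. Against the neutrophil library 12 of 14 S phase genes and 9 of 26 mitosis genes were higher, where 27.2% of all genes were, with medians of 2.39 and 1.01. The S phase median minus the mitosis median was thus -0.74 against the macrophage library (-0.78 from replicate 1 and -0.69 from replicate 2) and 1.38 against the neutrophil library (1.32 and 1.46). The spread between the bmEos replicates was small beside these differences, but neither has a replicate on the outside side. Without Mki67, Top2a, Hmgb2, Smc2, Smc4, Ncapd2 and Ccna2, which also act outside mitosis, the difference against the macrophage library was -0.5 and 9 of the 19 remaining genes were higher. With TMM scaling 2 of 14 S phase genes were higher than in the macrophage library. The count of mitosis genes higher than in the neutrophil library depended on bmEos replicate 2: without it 18 of 26 passed, and 19 passed with TMM scaling and 16 with DESeq2 size factors.

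Within each library, S phase genes made up 30.1% (95% Wilson interval 29.9 to 30.4) of the counts of the 40 genes in bmEos replicate 1 and 31.6% (31.2 to 31.9) in replicate 2. They made up 55.4% (55.1 to 55.6) in the macrophage and 19.8% (19 to 20.7) in the neutrophil library. The bmEos thus lay between the outside libraries, and the bmEos libraries differed from each other by less than from either. Summed S phase levels were 983 and 853 CPM in the bmEos, 665 CPM in the macrophage and 264 CPM in the neutrophil library. Summed mitosis levels were 2279 and 1850 CPM in the bmEos, 536 CPM in the macrophage and 1068 CPM in the neutrophil library. In both sums the bmEos libraries were the highest of the 4. Without the 7 genes that also act outside mitosis, mitosis sums were 944 and 739 CPM in the bmEos. They were then 344 CPM in the macrophage and 430 CPM in the neutrophil library. The S phase shares above thus depend on which genes are listed, and long or abundant genes weigh most in them.

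Between the bmEos replicates the 40 genes differed little in size but in one direction. At 1.5-fold or more, 1 of 40 differed, Aurka at 32.3 against 20.5 CPM (ratio 1.57, 95% interval 1.43 to 1.73 for counting error only), where 6.75% of detected genes were that far above replicate 2 and 0.486% that far below. It was 0 of 40 with DESeq2 size factors. Counting differences of any size, a rule chosen after the values were seen, 40 of 40 were higher in replicate 1, where 65.9% of detected genes and 65.3% of those within the 40 genes' range of mean CPM were. At 1.1-fold, also chosen afterwards, it was 39 of 40, where 33.2% and 25.7% were. The ratios ran from 1.03 for Cdt1 (0.961 to 1.11) to 1.57 for Aurka, with a median of 1.21 beside 1.04 over detected genes. Ube2c followed Aurka at 1.46 (1.35 to 1.57). The median was 1.18 for S phase and 1.24 for mitosis genes. With TMM scaling and with DESeq2 size factors 39 of 40 stayed above 1, where 49.1% and 47.2% of detected genes did.

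Lists of marker genes named for other cells also differed between the replicates. The 10 stromal markers, genes of matrix-forming cells, summed to 2555 CPM in replicate 1 and 671 CPM in replicate 2, with Lum at 0 in both. Of the detected stromal markers, 7 of 7 were at least 1.5-fold higher in replicate 1, where 6.75% of detected genes were. Col1a2 was at 1040 and 291 CPM. The 10 stem and progenitor markers summed to 240 and 180 CPM. Of the 9 detected, 7 were higher in replicate 1, not far from the 65.9% of all detected genes. By size they stood farther apart: 6 were at least 1.1-fold higher, where 33.2% of detected genes were, and 2 at least 1.5-fold. Their median ratio was 1.4, beside 1.04 over detected genes. Gata2 was the highest of these markers at 114 and 79.9 CPM, a large part of both sums. Myb was at 56.6 and 40.4 CPM, while Cd34 was at 22.5 and 23.8 CPM. The 8 mast cell and basophil markers summed to 204 and 132 CPM, with Mcpt4 at 0 in both. Of the 3 detected, 3 were higher in replicate 1 and 2 at least 1.5-fold higher. The 11 late neutrophil markers summed to 2322 and 2012 CPM, with Ngp at 658 and 482 CPM. Here 10 of 11 were higher in replicate 1, again beside 65.9% of all detected genes. The 14 macrophage markers ran the other way at 7087 and 8560 CPM, with Marco at 0 in both, and the eosinophil markers at 13350 and 13610 CPM. The 5 promyelocyte markers summed to 42.5 and 48.3 CPM, the 9 lymphoid markers to 36.3 and 39.8 CPM, and the 6 erythroid markers to 1.24 and 1.05 CPM with 0 of 6 detected. The part of these cells in the higher cell cycle values of replicate 1 was not tested, and bulk RNA does not show which cells of the culture held the 40 genes' transcripts.

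**Figure D4:**
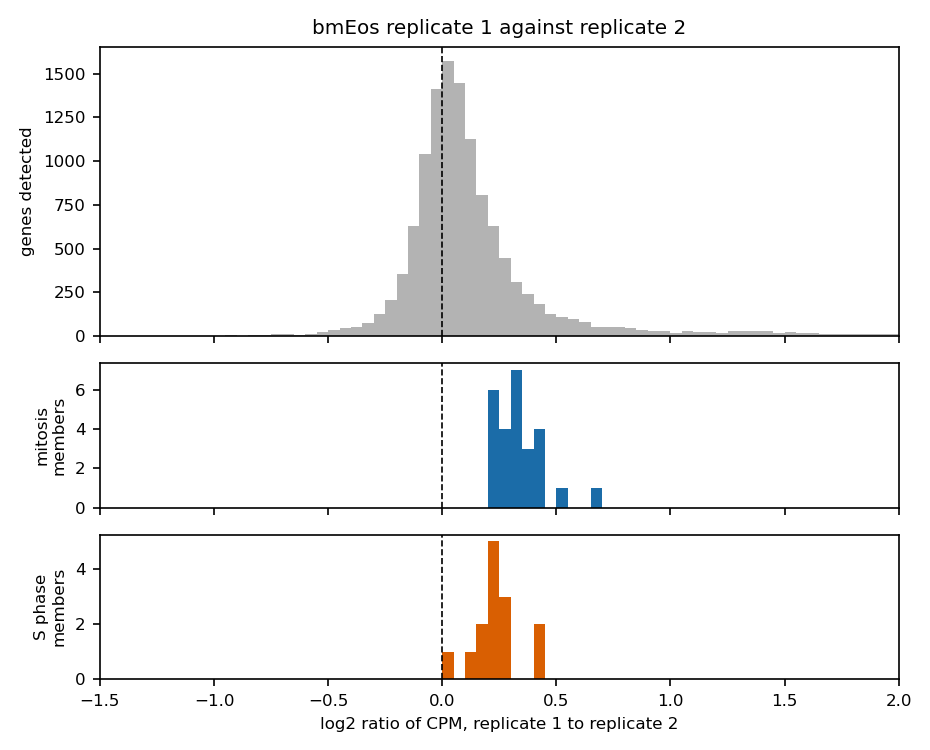
Number of genes by log2 ratio of CPM in bmEos replicate 1 to replicate 2, for all detected genes (grey), 26 mitosis genes (blue) and 14 S phase genes (orange). All 40 cell cycle genes lie to the right of the dashed line at 0, where 65.9% of detected genes lie; with TMM scaling or DESeq2 size factors 39 of 40 do.

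The other genes of the cell cycle were read from 11 lists by role, 126 genes in all, of which 125 reached 1 CPM in both bmEos libraries. Against the macrophage library 59 were higher and 2 lower, and against the neutrophil library 52 were higher and 11 lower, with median log2 ratios of 0.96 and 0.92. Over all genes 26.1% were higher and 16.6% lower against the macrophage library, and 27.2% and 23.9% against the neutrophil library. The 2 lower than in the macrophage library, named after their values were seen, were Cdkn1c, the inhibitor p57, at 1.04 and 0.46 CPM against 68.7 CPM, and Chek2, a DNA damage kinase, at 10 and 8.99 CPM against 36.5 CPM. Without bmEos replicate 1, 4 were lower, with E2f6 and Cdc25b added. In the bmEos replicates, 114 of the 125 were higher in replicate 1 by CPM, where 65.9% of detected genes were. The 125 were not counted with TMM scaling, where 49.1% of detected genes were higher.

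Upstream of S phase, 4 of 8 G1 cyclins and kinases were higher than in the macrophage library and 5 than in the neutrophil library, with 0 lower in each. Beside these counts, 26.1% and 27.2% of all genes were higher. Cdk6, a kinase partner of D cyclins, was at 372 and 382 CPM in the bmEos, against 108 and 79.8 CPM. Ccnd3, cyclin D3, was at 307 and 325 CPM, against 50.6 and 187 CPM. Ccnd1, cyclin D1, was at 111 and 72.9 CPM, against 44.5 and 2.82 CPM. Of the 8 genes, 6 were at least 1.1-fold higher in replicate 1, where 33.2% of detected genes were, and 2 at least 1.5-fold, where 6.75% were. Ccnd2, cyclin D2, named after its values were seen, was the farthest apart at 36 and 14.3 CPM. Cdk6 and Ccnd3 were not higher in replicate 1, unlike the 40 genes above.

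Of 7 CDK inhibitors, which brake the same kinases, 3 were higher and 1 lower than in the macrophage library, and 3 higher and 2 lower than in the neutrophil library. For all genes, 26.1% were higher and 16.6% lower against the macrophage library, and 27.2% and 23.9% against the neutrophil library. Cdkn1a, p21, was at 167 and 148 CPM, against 152 and 45.1 CPM. Cdkn1b, p27, was at 73.6 and 85.2 CPM, against 54.2 and 192 CPM, and Cdkn2d, p19 of the INK4 family, at 84.5 and 72.9 CPM, against 27.3 and 236 CPM. Both were lower than in the neutrophil library, by 2.41-fold and 3-fold. The locus partners Cdkn2a and Cdkn2b, named after their values were seen, were the inhibitors farthest above the macrophage library: Cdkn2a at 67.2 and 68.2 CPM against 0.785 and 4.07 CPM, and Cdkn2b at 72.4 and 68.9 CPM against 1.33 and 5.01 CPM. Transcripts of D cyclin kinases and of their inhibitors were thus both present in the bulk RNA of the bmEos. Whether the same cells held them was not tested.

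Of 12 RB family, E2F and DP genes other than E2f1, 6 were higher than in the macrophage library, and 4 higher and 2 lower than in the neutrophil library. E2f2, an activating E2F, was at 156 and 147 CPM in the bmEos, against 62.3 and 378 CPM, so unlike E2f1 it was higher than in the macrophage library. Tfdp1, the DNA-binding partner of E2F factors, was at 183 and 167 CPM against 64.3 and 188 CPM, and Rbl2, the RB relative p130, at 168 and 171 CPM against 78 and 225 CPM. Of 7 MuvB, B-Myb and FoxM1 genes, 2 were higher than in the macrophage library, and 2 higher and 1 lower than in the neutrophil library. For all genes, 26.1% were higher against the macrophage library, and 27.2% higher and 23.9% lower against the neutrophil library. The 2 MuvB, B-Myb and FoxM1 genes higher in each case are near these shares. Foxm1, an activator of mitosis genes, was at 43 and 34.7 CPM, against 22.8 and 13.9 CPM. Lin54, the MuvB subunit that reads CHR letters, was at 40.5 and 33.1 CPM, against 13.9 and 156 CPM. Rbbp4, a histone-binding subunit shared with other complexes, was at 172 and 168 CPM, against 258 and 164 CPM.

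Among 30 other origin and fork genes, 8 were higher than in the macrophage library and 18 than in the neutrophil library, with 0 and 1 lower. The count against the macrophage library is near the 26.1% of all genes, and that against the neutrophil library stands beside 27.2%. Rfc2, a subunit of the clamp loader, was at 131 and 142 CPM, against 76.1 and 62.9 CPM, and Rpa1, which coats single-stranded DNA, at 71.3 and 69.5 CPM, against 90.1 and 14.4 CPM. Of 6 chromatin assembly genes 2 and 4 were higher, among them Uhrf1, which recruits the maintenance DNA methyltransferase, at 74.3 and 61.9 CPM, against 19.5 and 8.92 CPM. Of 7 nucleotide supply genes 3 and 2 were higher, and 2 were lower than in the neutrophil library. Tk1, the thymidine kinase of S phase, was at 32.8 and 26.1 CPM, against 12.8 and 4.54 CPM, and Dck, the deoxycytidine kinase, at 73.3 and 71.5 CPM, against 124 and 264 CPM.

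Among the lists of mitosis, 9 of 11 kinetochore and checkpoint genes were higher than in the macrophage library and 4 than in the neutrophil library. The shares of all genes were 26.1% higher and 16.6% lower against the macrophage library, and 27.2% and 23.9% against the neutrophil library. Mad2l1, a checkpoint protein, was at 36.6 and 32.3 CPM, against 11.5 and 12 CPM. Of 18 mitotic kinesins and cytokinesis genes, 12 and 5 were higher, the 5 being near the 27.2% of all genes. Racgap1, a partner of Kif23 in the central spindle, was at 69 and 52.9 CPM, against 46 and 24.1 CPM. Of the 10 cohesin and condensin genes, 5 were higher than in the macrophage library, among them Stag2 at 195 and 195 CPM against 27.7 CPM but not Rad21 at 244 and 233 CPM against 161 CPM or Smc1a at 167 and 155 CPM against 99.6 CPM. In that list 1 gene was higher and 2 lower than in the neutrophil library. Of 10 checkpoint and CDC25 genes, 5 were higher and 1 lower than in the macrophage library, and 4 higher and 1 lower than in the neutrophil library. Clspn, a mediator of the replication checkpoint, was at 33.2 and 26.4 CPM, against 8.35 and 3.76 CPM, and Cdc25b, a phosphatase that activates Cdk1, at 45.3 and 37.6 CPM, against 87.3 and 176 CPM.

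**Figure D5:**
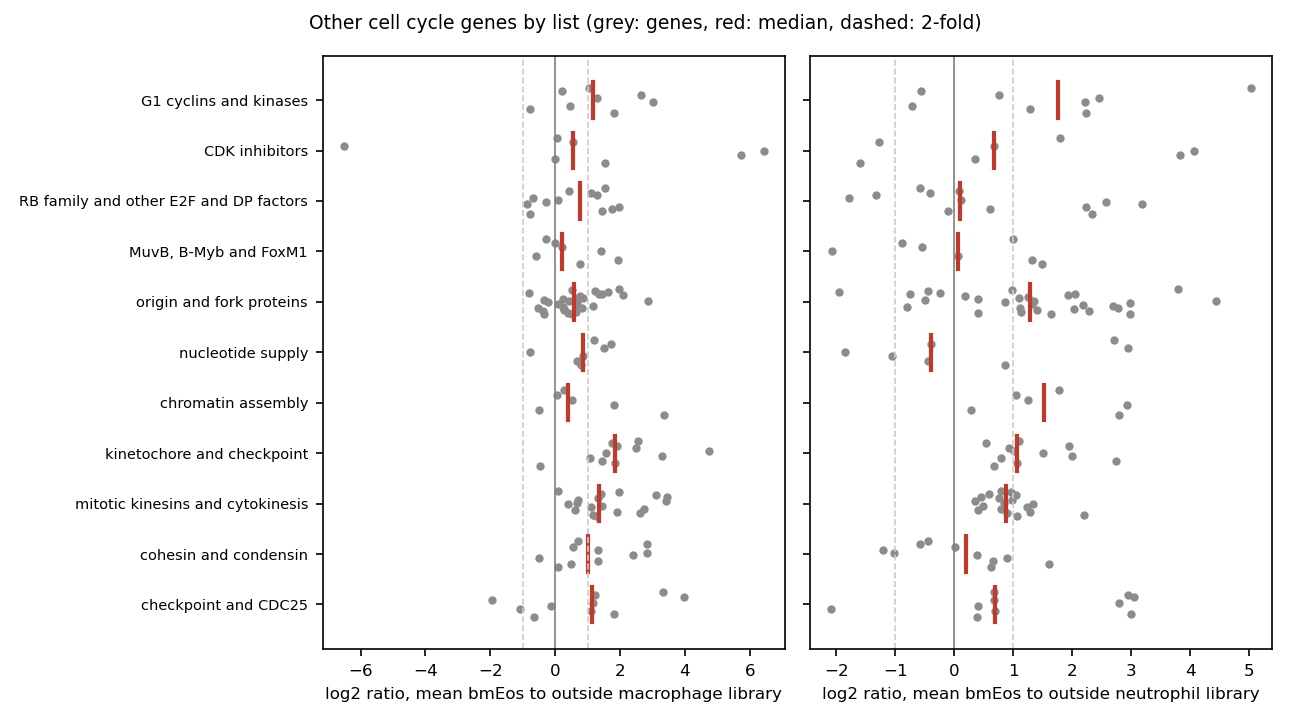
Log2 ratio of the mean bmEos CPM to the outside macrophage library (left) and the outside neutrophil library (right) for the genes of 11 other cell cycle lists; grey points are genes, red bars the list medians and dashed lines 2-fold. The median of kinetochore and checkpoint genes is 1.86 on the left and 1.06 on the right, and that of origin and fork genes 0.57 and 1.28.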

How the data were processed

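Transcripts of cell cycle genes were counted by RNA-seq in 2 bmEos libraries, prepared with a stranded mRNA kit per the labels' protocols. Per the submitters' processing notes the tools included FastQC 0.11.7, Trim Galore 0.4.2, STAR 2.5 and featureCounts, with build mm9. The deposited values are raw counts per gene by symbol, one table per library, and whether the authors counted by strand is not given in the sources used here. Genes that overlap a neighbour (Mcm7, Gins2, E2f1, Ccna2, Aurka, Cdc20, Nusap1, Prc1) or have a pseudogene copy (Pcna, Tyms, Ccnb1, Ccnb2) are therefore uncertain.

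CPM, ratios and intervals were computed from these counts with Python 3.11.15, pandas 2.3.3 and scipy 1.17.1. Genes at 1 CPM or more in at least 1 of the 4 libraries were compared, and counts under 3 were set to 3. The comparison was run on simulated data in which all libraries shared the bmEos profile except for noise and planted changes. Such data hold no difference of study or library preparation, so they cannot show how these affect the ratios. No model was fitted: TMM (edgeR 4.0.16) and DESeq2 1.42.0 size factors served as alternative scalings only. The outside tables were matched to cell types by their run numbers, 26 symbols stored as dates were matched by row order, and 19 peak lists were not used. All 40 genes are named, with up to 3 detected genes of highest bmEos CPM of each other list and up to 2 under 1 CPM; some of these are left out of the text. The members and lists were chosen with earlier results of these data known.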

Additional observations from a re-analysis of the deposited data

How the results depend on the processing

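No called ratio changed direction under the alternatives run. Against the macrophage library, TMM scaling gave 1 gene lower (E2f1) in place of 0, 2 S phase genes higher in place of 4, and median log2 ratios of 0.37 for S phase and 1.1 for mitosis genes. Without the 7 genes that also act outside mitosis, 9 mitosis genes were higher, their median was 1.09 and the S phase minus mitosis difference -0.5. Leaving out 1 bmEos replicate gave 0 to 1 genes lower than in the macrophage library, and 2 to 4 among the other cell cycle lists. Against the neutrophil library, TMM scaling gave medians of 1.49 for the 40 genes, 2.7 for S phase and 1.32 for mitosis genes, 19 mitosis genes higher in place of 9, and 6 genes of the other lists lower in place of 11. DESeq2 size factors gave 2.57 for S phase genes, 16 mitosis genes higher and 7 genes of the other lists lower. A pseudocount of 1 CPM gave 2.25 for S phase genes and a difference of 1.26. Leaving out 1 replicate gave 9 to 18 mitosis genes higher. Between the replicates, DESeq2 size factors gave 0 genes 1.5-fold apart in place of 1. A common scaling shifts every ratio to a library equally, so it does not move the S phase minus mitosis difference.

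No paired analysis was possible because the RNA libraries form 1 group and no test was run. The promoter peaks were not analysed here. Depth limits the neutrophil library most: Gins2 and Tyms rest on 9 and 11 counts there.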
